A study of Mus musculus with 21 samples.

Results

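The comparison described here sets skin of mice with chronic graft-versus-host disease against skin of syngeneic transplant controls. It covers 8 of the 21 libraries of the series, chosen by label alone: the 4 syngeneic and the 4 allogeneic libraries of mice given an isotype control antibody. All recipients were BALB/c mice, 8 weeks old, that had 700 cGy of total body irradiation and a bone marrow graft 6 hours later. The syngeneic group received BALB/c marrow and the allogeneic group B10.D2 marrow. Both strains carry the H-2d haplotype, so the allogeneic graft differed from its host at antigens other than the major histocompatibility complex. From day 21 both groups were injected intraperitoneally with mIgG2a LALA-PG, 2 doses a week for 4 weeks, at 20 mg/kg for the first dose and 10 mg/kg afterwards, and skin was taken 7 weeks after transplantation. Poly-A RNA was sequenced from a disc of skin 3 mm across. The labels name neither the sex of the animals nor which libraries come from different mice, and p-values therefore measure only the spread between these samples. Donor strain parts the same libraries as disease, and the effects of both cannot be told apart.

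In this model donor T cells recognise minor antigens of the host, and the skin goes through an inflammatory phase that is followed by thickening and fibrosis, which has made it a model of systemic sclerosis. Interferon-gamma from activated T cells acts through transcription factors such as IRF1 to raise antigen presentation and the chemokines that draw in more T cells. Keratinocytes, the main cells of the epidermis, answer such signals with an alternative differentiation program that includes stress keratins, small proline-rich proteins and cytokines of the IL-1 and IL-36 family.

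Total counts were 22756279 to 32899212 in the syngeneic and 18556762 to 25339128 in the allogeneic libraries. Values per library are CPM (counts scaled to a common library size, after TMM scaling) and always stand in the order of replicates 1 to 4. Changes are log2 fold changes of allogeneic over syngeneic skin ± SE, from edgeR's quasi-likelihood test of these 8 libraries with Benjamini-Hochberg adjustment over all genes tested, and a gene was called at an adjusted p under 0.05. Of 17 skin-defining genes with counts, all 17 passed the filter on low counts, and together they took 2.98 to 4.54% of counts in syngeneic and 5.2 to 8.53% in allogeneic libraries. Lung markers took at most 0.000923% and liver markers at most 0.000509% of counts in any library. In the allogeneic group 2 libraries stood apart: replicate 1 had almost no skeletal muscle RNA and replicate 3 almost no antibody RNA. Skeletal muscle RNA took 6.33, 7.73, 4.86 and 6.75% in the syngeneic and 0.00445, 1.46, 6.71 and 2.57% in the allogeneic libraries, and its part in the differences was not tested beyond a fit with that share as a covariate. Of 275 genes that are named below and were called, 40 were not called in that fit: Ak1, Car3, Ccne1, Cd3e, Chil4, Cyp51, Gpx3, Hbegf, Hdc, Hspg2, Icam1, Igha, Igkc, Il1a, Il1rap, Il4, Inhba, Jchain, Kdr, Krt10, Krt14, Krt73, Krt8, Lamc1, Lgals7, Mbp, Mstn, Osm, Phlda2, Pkp2, Psma1, Rrm2, S100a8, Sfrp4, Skint6, Tgfb1, Tpi1, Tyrp1, Wnt7b and Xcl1. Where that fit or leaving out 1 library moved the number of genes called in a list by more than 1.5 times and it was at least 4 in either fit, the other number follows. Smaller counts are less firm: of 51 counts of 1 to 3 genes called in 1 direction of a list, 40 moved by more than 1.5 times in at least 1 of these fits. In whole skin, fewer cells of a type and less RNA per cell cannot be told apart.

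Of 18711 genes tested, 4752 (25.4%) were called, 2674 (14.3%) higher and 2078 (11.1%) lower in allogeneic skin. The median log2 fold change over all genes was -0.02. All 4 allogeneic libraries lay above all 4 syngeneic ones for 2980 genes (15.9%) and below them for 2734 (14.6%). The called genes that were at least 4-fold higher numbered 635, against 310 at least 4-fold lower. Those at least 16-fold higher numbered 171, against 44 lower, so the largest changes were mostly increases. With the skeletal muscle share of counts as a covariate 3056 genes were called, 1519 higher and 1537 lower, and without allogeneic replicate 3 the number was 6138.

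**Figure D1:**
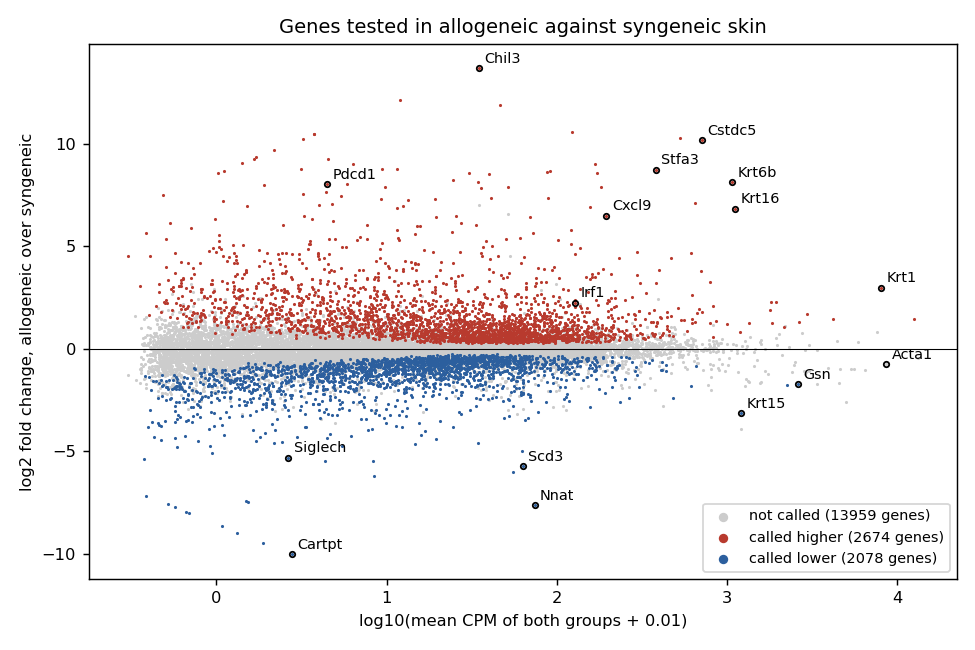
Each point is 1 of 18711 genes, by its mean level over both groups (log10 of CPM + 0.01) and its log2 fold change of allogeneic over syngeneic skin. Called genes, 2674 higher in red and 2078 lower in blue, spread further upward than downward, with Chil3 at the top and Cartpt at the bottom.

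The largest increases were in a few families. Chil3, a chitinase-like protein of activated macrophages, had no count in any syngeneic library and 63.7, 62.3, 73.1 and 80.4 CPM in the allogeneic libraries. It was at least 2474-fold higher, against a floor of 3 counts over the syngeneic group. The related Chil4 was at least 851-fold higher but uneven, at 18.6, 6.69, 3.05 and 67.9 CPM, with allogeneic replicate 4 the highest. The stefin A group, small inhibitors of cysteine proteases, rose from near 0 to high levels. Stfa3 was at 0.758, 1.51, 2.08 and 2.77 CPM in the syngeneic and 802, 621, 668 and 961 CPM in the allogeneic libraries. No syngeneic library came near the allogeneic range, and the change was 8.74 ± 0.47 (adjusted p = 4.96e-05). Cstdc5 was at 0.265, 0.0409, 1.95 and 2.61 CPM in the syngeneic and 1425, 1366, 1269 and 1621 CPM in the allogeneic libraries, among the 12 largest rises in CPM of all genes. Its relatives Stfa2, Cstdc6 and Csta3 moved the same way (Stfa2 by 11.91 ± 0.65, Cstdc6 by 10.57 ± 0.76 and Csta3 at least 154-fold). These genes resemble each other closely, as do Chil3 and Chil4, and their reads may be split between members. Also at 0 in syngeneic skin were Akr1d1, a bile acid and steroid reductase, Gvin3, a very large GTPase, and Ifi213, of the PYHIN family, which were higher by at least 266-fold, 121-fold and 265-fold. So was Il24, a cytokine of the IL-20 family that acts on keratinocytes, at 4.34, 2.98, 2.3 and 1.66 CPM in allogeneic skin (at least 99.8-fold higher), and of 8 genes of the IL-20 and IL-22 axis 3 rose and none fell. In all, 12 genes called higher had no syngeneic count and 9 called lower no allogeneic count.

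**Figure D2:**
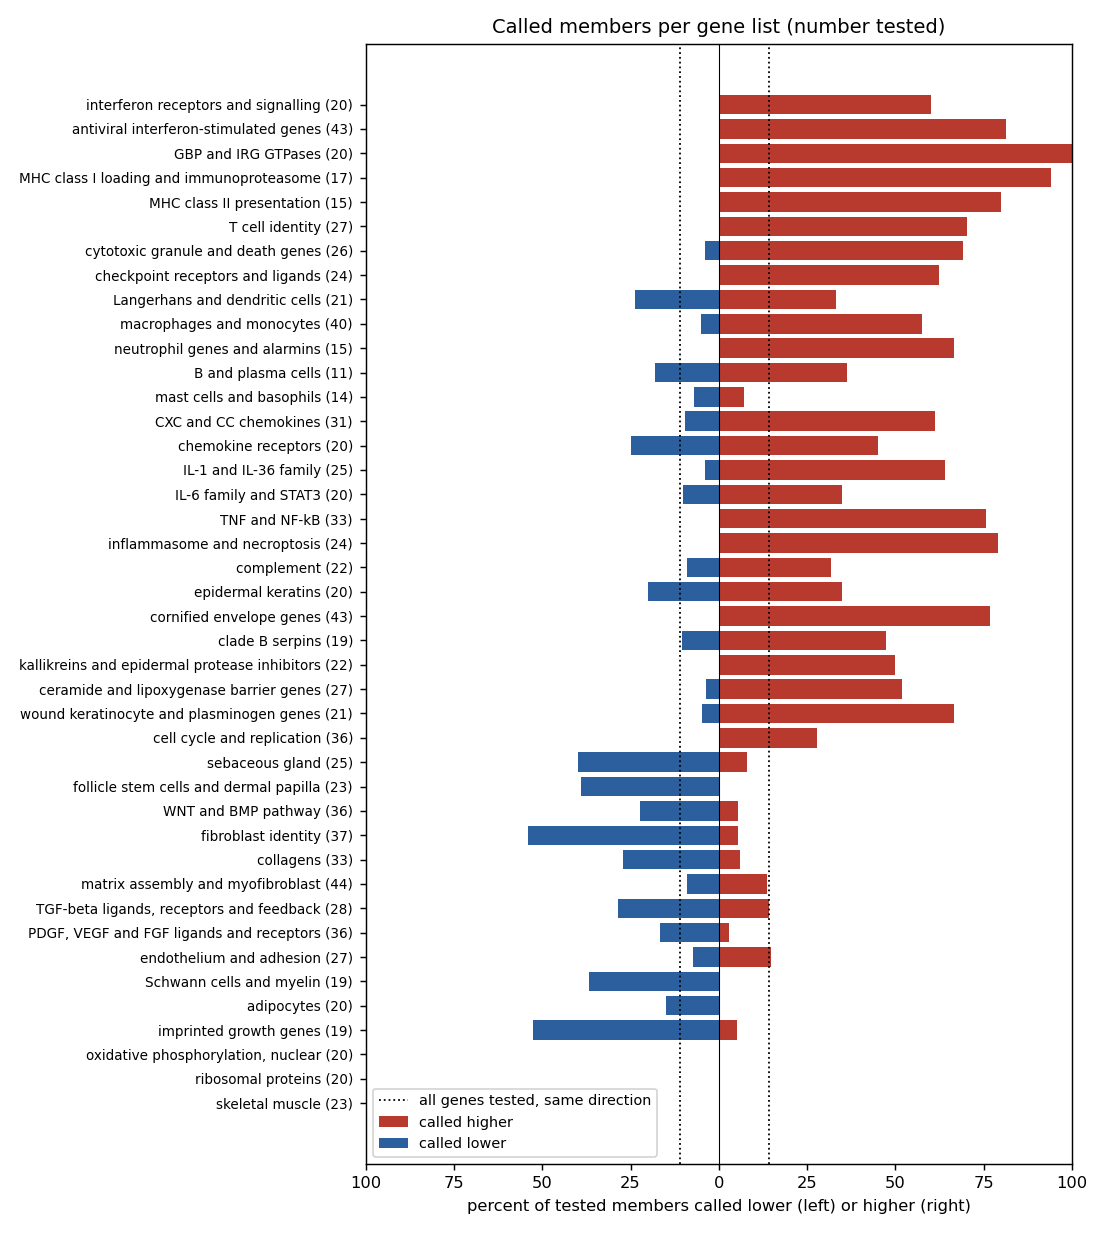
Bars give the percent of each gene list's tested members that were called higher (right, red) or lower (left, blue) in allogeneic skin, with the number tested in parentheses. The dotted lines mark the same percent over all genes, 14.3% higher and 11.1% lower. Most immune lists and the cornified envelope list reach far to the right, but mast cells and basophils do not. Fibroblast, sebaceous and follicle lists reach to the left, as do dendritic cells and chemokine receptors in part.

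Interferon signalling was raised in allogeneic skin. Among 20 interferon receptors and signal transducers, 12 rose and none fell, with a median log2 fold change of 0.59. Irf1, a transcription factor induced by interferon-gamma, was at 52.5, 43.3, 32 and 51.2 CPM in the syngeneic and 249, 234, 220.1 and 144 CPM in the allogeneic libraries, a change of 2.24 ± 0.22 (adjusted p = 0.000445). Stat2 and Irf9, parts of the complex that answers type I interferon, rose by 2.39 ± 0.14 and 1.40 ± 0.13. The feedback inhibitors Usp18 (2.29 ± 0.18) and Socs3 (1.16 ± 0.10) rose too.

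Target genes of interferon had larger changes. Of 43 antiviral interferon-stimulated genes, 35 rose and none fell, with a median of 2.13 on the log2 scale. Oas3, which makes the messenger that activates RNase L, was at 5.8, 3.77, 2.92 and 2.36 CPM in the syngeneic and 85.7, 72, 84.2 and 68.8 CPM in the allogeneic libraries. All 4 allogeneic libraries lay far above the syngeneic ones, and the change was 4.39 ± 0.28 (adjusted p = 8.15e-05). The ubiquitin ligase partners Parp9 (2.29 ± 0.16) and Dtx3l (2.17 ± 0.17), the RNA editing enzyme Adar (1.51 ± 0.12) and the RNA sensor Ifih1 (1.85 ± 0.15) were among those with the lowest p. The ubiquitin-like Isg15 was at 17.4, 6.1, 14.1 and 7.99 CPM in the syngeneic and 176, 162, 203 and 179.5 CPM in the allogeneic libraries. Again the groups did not overlap, and Isg15 changed by 3.98 ± 0.34 (adjusted p = 0.000221).

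All 20 guanylate-binding protein and immunity-related GTPase genes rose, with a median of 3.76. These GTPases are typical targets of interferon-gamma in the mouse and attack the vacuoles of pathogens. Iigp1 was at 24, 21.7, 19.8 and 19.8 CPM in the syngeneic and 388, 575, 934 and 397 CPM in the allogeneic libraries. Allogeneic replicate 3 was the highest, the syngeneic libraries lay close together, and the change was 4.75 ± 0.33 (adjusted p = 0.000101). Gbp2 was at 34.3, 27.1, 25 and 22.8 CPM in the syngeneic and 256, 311, 432 and 228 CPM in the allogeneic libraries, and replicate 3 was again the highest (3.49 ± 0.24, adjusted p = 0.000102). Gbp2b rose by 3.87 ± 0.26, Gbp4 by 3.42 ± 0.22, Gbp8 by 4.72 ± 0.30 and Ifi47 by 3.84 ± 0.21. Of 12 PYHIN genes, DNA-binding proteins of which several sense foreign DNA, 8 rose. Ifi206 rose by 4.67 ± 0.62 and Ifi209 by 2.86 ± 0.42, in a family of similar sequences. PYHIN genes called higher numbered 5 without syngeneic replicate 3 or allogeneic replicate 1 and 4 with the muscle share as a covariate.

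Promoter sequences are shown for genes of the antiviral, GTPase and chemokine lists, because these genes are known targets of interferon, rose here and hold the motif shown in capitals. They come from RefSeq (GRCm38.p6, an older build than the GRCm39 of the counts), lie within 250 bases before the gene start and are read 5′ to 3′ on the strand of the gene. Capitals mark a match to GAAANNGAA, the core of the interferon-stimulated response element bound by factors of the IRF family, on either strand.
Oas3, chr5:120777680-120777769, minus strand: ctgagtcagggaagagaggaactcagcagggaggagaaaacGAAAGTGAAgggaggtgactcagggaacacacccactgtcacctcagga
Ifih1, chr2:62646319-62646408, minus strand: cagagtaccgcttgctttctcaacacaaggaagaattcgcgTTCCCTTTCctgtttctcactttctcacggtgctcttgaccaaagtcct
Gbp2b, chr3:142594670-142594759, plus strand: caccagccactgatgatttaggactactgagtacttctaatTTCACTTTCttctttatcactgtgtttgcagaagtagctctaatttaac
Gbp2, chr3:142620564-142620653, plus strand: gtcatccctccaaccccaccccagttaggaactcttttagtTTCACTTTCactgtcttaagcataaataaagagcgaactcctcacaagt
Cxcl10, chr5:92349050-92349139, minus strand: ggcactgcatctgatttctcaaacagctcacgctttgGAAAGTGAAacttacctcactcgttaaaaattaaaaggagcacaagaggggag
Cxcl9, chr5:92328206-92328295, minus strand: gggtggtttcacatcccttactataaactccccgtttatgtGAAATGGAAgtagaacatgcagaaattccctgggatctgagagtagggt
The motif occurs in 8.57% of the 27025 promoters of the same length in that table. Promoters were matched for 12797 of 18711 genes tested, and the motif occurred in 7.42% of these. It occurred in 11.5% of matched promoters of genes called higher and 6.92% of those called lower. This was not particular to the motif, since the other motifs searched for differed the same way. In the same order, the kB motif GGANTTTCC occurred in 2.66 and 1.04% and the AP-1 motif TGANTCA in 8.73 and 4.77%. The gamma-activated sequence TTCNNNGAA occurred in 8.99 and 5.87%, and no test was made for any motif. Genes without a matched promoter are left out of these shares. For the antiviral list 32 of 43 genes matched, and shares by list are not reported here. A match says only that these letters are present in the window.

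Among antigen presentation genes, those that load MHC class I rose nearly without exception. Of 17 genes that load MHC class I, 16 rose and none fell (median 1.26), and all 17 lay higher in every allogeneic library than in any syngeneic one. Psmb8, a catalytic subunit of the immunoproteasome, was at 80.0, 88.5, 80.9 and 95.7 CPM in the syngeneic and 327, 369.9, 343 and 282 CPM in the allogeneic libraries. The groups were far apart and each was even, and the change was 1.94 ± 0.13 (adjusted p = 9.77e-05). The other inducible subunits Psmb9 (2.0 ± 0.16) and Psmb10 (1.96 ± 0.18), the peptide transporters Tap1 (1.85 ± 0.14) and Tap2 (1.65 ± 0.13) and the loading protein Tapbp (1.51 ± 0.13) changed to a like extent. B2m, the light chain of class I molecules, was at 1032, 1047, 1196 and 1071 CPM in the syngeneic and 2553, 2938, 2369 and 2483 CPM in the allogeneic libraries, a change of 1.25 ± 0.19 (adjusted p = 0.00296). The classical heavy chain H2-D1 rose by 1.08 ± 0.20. Of 18 genes of the constitutive proteasome 8 rose, with a median of 0.37 (Psma1 by 0.64 ± 0.12). Proteasome genes called higher numbered 3 without syngeneic replicate 1, 5 without syngeneic replicate 2 or 3 and 5 with the muscle share as a covariate.

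Non-classical class I genes, which present lipids and leader peptides or bind natural killer receptors, were higher in 13 of 21 cases and lower in 1. H2-Q7 was at 25, 31.1, 27.8 and 31.4 CPM in the syngeneic and 107, 108, 97.8 and 114 CPM in the allogeneic libraries, even within each group (1.89 ± 0.11, adjusted p = 5.19e-05). H2-T22 rose by 1.73 ± 0.14 and H2-T23, the ligand of NKG2A, by 1.56 ± 0.14. These genes are close copies of each other and differ between strains, so how reads were divided among them is uncertain. Of 15 class II genes, 12 rose and none fell (median 1.81). H2-Ab1, a chain of the class II molecule, was at 231, 403, 385 and 241 CPM in the syngeneic and 1208, 1543, 919.6 and 757 CPM in the allogeneic libraries. All allogeneic libraries were higher, replicates 3 and 4 less so, and the change was 1.81 ± 0.30 (adjusted p = 0.00393). The protease Ctss rose by 3.22 ± 0.47, the regulator Ciita by 2.18 ± 0.32, the invariant chain Cd74 by 1.92 ± 0.33 and the reductase Ifi30 by 1.24 ± 0.19.

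T cell genes were higher in 19 of 27 cases and lower in none, with a median of 2.25. The CD8 co-receptor gene Cd8a was at 0.265, 0.532, 0.127 and 0 CPM in the syngeneic and 16, 23.1, 9.02 and 12.3 CPM in the allogeneic libraries. It was all but absent in syngeneic skin, highest in allogeneic replicate 2, and changed by 6.05 ± 0.72 (adjusted p = 0.000955). Cd8b1 rose by 6.32 ± 0.60. Cd4 was at 0.985, 1.97, 1.57 and 1.26 CPM in the syngeneic and 25.7, 22.1, 7.47 and 10.6 CPM in the allogeneic libraries. All allogeneic libraries were higher (3.51 ± 0.45, adjusted p = 0.00128), with replicates 3 and 4 the lower ones of the group. The CD3 chain Cd3e rose by 2.31 ± 0.49, the receptor chain Trac by 2.99 ± 0.40, the kinase Zap70 by 2.58 ± 0.35 and the adhesion receptor Cd2 by 3.01 ± 0.41. T cell genes called higher numbered 10 with the muscle share as a covariate.

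Among T helper genes, 2 of 10 rose and 1 fell. Ifng, the type II interferon itself, was at 0.0758, 0.205, 0 and 0.126 CPM in the syngeneic and 2.79, 2.59, 2.48 and 2.13 CPM in the allogeneic libraries. These are low but even levels, and the change was 4.53 ± 0.54 (adjusted p = 0.000942). The IL-12 receptor chain Il12rb1 rose by 3.39 ± 0.55. Il4, the cytokine of type 2 responses, was at 1.74, 1.84, 2.59 and 2.01 CPM in the syngeneic and 0.86, 0.83, 1.37 and 1.06 CPM in the allogeneic libraries and fell (-0.98 ± 0.26, adjusted p = 0.0266), and it was not called without syngeneic replicate 2, 3 or 4 or allogeneic replicate 1, 2 or 4 (adjusted p from 0.0533 to 0.0736). The type 1 regulator Tbx21 was at 1.43 ± 0.46 (adjusted p = 0.0529) and the type 2 regulator Gata3 at -0.63 ± 0.25 (adjusted p = 0.102), neither of them called. T helper genes called higher numbered 4 without syngeneic replicate 2, 5 without syngeneic replicate 4 and 6 without allogeneic replicate 3.

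Cytotoxic genes were raised, with 18 of 26 higher and 1 lower. The granule protease Gzmb was at 0.682, 1.15, 0.594 and 0.22 CPM in the syngeneic and 12.3, 11.3, 7.56 and 5.44 CPM in the allogeneic libraries, a change of 3.80 ± 0.48 (adjusted p = 0.00125) with no overlap. The granule protein Nkg7 rose by 3.53 ± 0.50, the inhibitory receptor Klrc1 by 3.97 ± 0.50, the death ligand Tnfsf10 (TRAIL) by 2.32 ± 0.23 and the pro-apoptotic Pmaip1 by 1.65 ± 0.20.

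Inhibitory checkpoint genes rose as well, 15 of 24, with none lower. Pdcd1, which encodes PD-1, was at 0, 0.0819, 0.0424 and 0 CPM in the syngeneic and 5.97, 18.3, 5.04 and 6.15 CPM in the allogeneic libraries. A few reads at most were found in syngeneic skin, allogeneic replicate 2 was the highest by far, and the change was 8.03 ± 0.81 (adjusted p = 0.000485). Its ligand genes rose too. Cd274 (PD-L1) was at 13, 10.7, 9.79 and 8.96 CPM in the syngeneic and 82.7, 87.3, 383 and 78.6 CPM in the allogeneic libraries. Allogeneic replicate 3 stood far above the other 3, which were alike, and the change was 3.90 ± 0.58 (adjusted p = 0.00256). Pdcd1lg2 (PD-L2) was at 0.19, 0.328, 0.297 and 0.126 CPM in the syngeneic and 15, 12.2, 6.46 and 5.26 CPM in the allogeneic libraries, with replicates 1 and 2 the higher ones (5.38 ± 0.48, adjusted p = 0.000295). The exhaustion receptor Havcr2 (TIM-3) rose by 2.62 ± 0.32, its ligand Lgals9 by 1.11 ± 0.16, and the tryptophan-degrading Ido2 by 4.17 ± 0.43 from very low levels.

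Genes of the resident gamma-delta T cells of mouse epidermis and of the Skint family, which keratinocytes express, moved both ways. Mouse epidermis normally holds a network of such cells with one fixed receptor, and Skint1 is needed for their selection. The delta constant gene Trdc was at 1.1, 3.32, 3.77 and 1.2 CPM in the syngeneic and 0.774, 0.244, 0.0442 and 0.296 CPM in the allogeneic libraries. All allogeneic libraries were below the syngeneic ones, though replicate 1 only narrowly, and the change was -2.75 ± 0.72 (adjusted p = 0.0242). This gene was not called without syngeneic replicate 2 or 3 or allogeneic replicate 2 or 4 (adjusted p from 0.0626 to 0.0658). The variable segment Trdv4 had counts in only 1 allogeneic library, replicate 1 (-3.57 ± 0.84, adjusted p = 0.0163, and -7.18 without it). Skint1 itself was at 10.08, 13.2, 16.2 and 16.2 CPM in the syngeneic and 25.8, 25.6, 25.8 and 29.1 CPM in the allogeneic libraries and rose (0.93 ± 0.16, adjusted p = 0.00481), while its relative Skint6 fell (-1.32 ± 0.38). Skint6 was not called without syngeneic replicate 3 or 4 or allogeneic replicate 1 or 3 (adjusted p from 0.0532 to 0.0931). Trgc2, a gamma constant gene that is transcribed in other T cells as well, rose by 4.20 ± 0.50, and the chemokine Xcl1 by 2.58 ± 0.65. Xcl1 was not called without syngeneic replicate 1 or allogeneic replicate 2 (adjusted p from 0.0536 to 0.0608). Over the list of 13, 3 rose and 3 fell (1 without syngeneic replicate 3).

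Of 40 genes of macrophages and monocytes 23 rose and 2 fell (median 1.44). Nos2, the inducible nitric oxide synthase, was at 3.26, 2.66, 1.74 and 2.64 CPM in the syngeneic and 42.4, 17.5, 23.7 and 13.1 CPM in the allogeneic libraries, a change of 3.23 ± 0.39 (adjusted p = 0.001). The complement gene C1qb was at 94.7, 101, 53.1 and 72.7 CPM in the syngeneic and 495, 598, 359 and 231 CPM in the allogeneic libraries, with replicate 4 the lowest allogeneic library (2.39 ± 0.33, adjusted p = 0.00179), its partner C1qa rose by 1.71 ± 0.31, the inhibitory Fc receptor Fcgr2b by 2.16 ± 0.28, and Clec4e, the receptor Mincle, by 8.07 ± 1.10. Macrophage genes called higher numbered 12 with the muscle share as a covariate.

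Dendritic cell genes split, 7 of 21 higher and 5 lower. Siglech, a marker of plasmacytoid dendritic cells, was at 4.58, 4.26, 4.75 and 6.95 CPM in the syngeneic and 0.043, 0.244, 0 and 0.236 CPM in the allogeneic libraries. It all but disappeared from allogeneic skin (-5.33 ± 0.62, adjusted p = 0.000857). The lectin Cd209a of dermal dendritic cells was at 10.7, 18.4, 21.2 and 20.1 CPM in the syngeneic and 1.2, 2.78, 0.663 and 2.13 CPM in the allogeneic libraries and fell by 3.38 on the log2 scale, with SE 0.44 (adjusted p = 0.00134). Ccr7, the receptor that takes dendritic cells to lymph nodes, rose by 2.85 ± 0.49, and the uptake receptor Ly75 by 2.20 ± 0.26. Bst2, a marker of plasmacytoid cells that interferon induces in many others, rose by 2.09 ± 0.26. Dendritic cell genes called higher numbered 4 with the muscle share as a covariate. Dendritic cell genes called lower numbered 3 with the muscle share as a covariate.

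Of 15 neutrophil and alarmin genes tested, 10 rose and none fell, and the stefins above are counted among them. The list held 30 genes, and Ly6g, Mpo, Elane, Ngp, Ltf, Camp, Mmp8 and Cxcr1 were among those not tested. Cxcr2, the main chemokine receptor of neutrophils, was at 0.19, 1.19, 0.212 and 0.44 CPM in the syngeneic and 13.2, 19.6, 20.4 and 20.2 CPM in the allogeneic libraries, a change of 5.17 ± 0.54 (adjusted p = 0.000522). The gelatinase Mmp9 rose by 2.51 ± 0.20. The alarmin S100a9 was at 1.21, 2.78, 0.721 and 1.13 CPM in the syngeneic and 44.7, 2.54, 21.1 and 16.4 CPM in the allogeneic libraries. Allogeneic replicate 2 lay within the syngeneic range and the groups overlapped, though the gene was called (3.86 ± 0.81, adjusted p = 0.0103). S100a8, its partner, rose by 2.50 ± 0.75, and of 13 S100 genes 2 rose and 2 fell, shares near those of all genes. Of 14 mast cell genes 1 rose and 1 fell. The receptor Mrgprb2 of connective tissue mast cells was at 12.3, 13, 14.7 and 17.5 CPM in the syngeneic and 2.15, 2.1, 0.973 and 2.13 CPM in the allogeneic libraries, with no overlap (-2.97 ± 0.27, adjusted p = 0.000333), while the protease Cma1 was not called (-1.25 ± 0.62, adjusted p = 0.169). Hdc, the histamine-forming enzyme, rose by 1.58 ± 0.44 with overlap between the groups, and by 1.05 without allogeneic replicate 1. Hdc was not called without syngeneic replicate 1, 2, 3 or 4 or allogeneic replicate 2 (adjusted p from 0.0521 to 0.0811).

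Antibody genes differed widely between allogeneic libraries, and of 11 B and plasma cell genes 4 rose and 2 fell (median 0.06). Igha, the heavy chain of IgA, was at 0.606, 2.21, 2.2 and 1.1 CPM in the syngeneic and 541, 844, 0.752 and 64.3 CPM in the allogeneic libraries. Replicates 1 and 2 were the highest, replicate 4 lay between, and replicate 3 was within the syngeneic range. The light chain Igkc (262, 419.5, 0.531 and 43.6 CPM in allogeneic libraries) and the joining chain Jchain (105, 169, 0.177 and 12.4 CPM) had the same order, and all 3 genes were called (7.89 ± 1.76, 8.66 ± 1.75 and 7.85 ± 1.72). Ighg2c, a heavy chain of IgG, had 521 and 484 counts in allogeneic replicates 1 and 2 and 0 in the other 6 libraries, and was not tested. Donor strain also parts the groups, and its part in these counts was not tested. Heavy chains of naive B cells were lower in allogeneic skin: Ighd was at 1.25, 1.39, 1.15 and 1.45 CPM in the syngeneic and 0.215, 0.146, 0.0442 and 0.118 CPM in the allogeneic libraries (-3.26 ± 0.40, adjusted p = 0.00103), and Ighm at 59.9, 53.9, 51.6 and 67.6 CPM in the syngeneic and 29.8, 23.7, 6.9 and 9.22 CPM in the allogeneic libraries (-1.74 ± 0.43, adjusted p = 0.0206). The B cell surface gene Ms4a1 had at most 4 counts in any library. Ighm was not called without syngeneic replicate 4 (adjusted p = 0.0527). B and plasma cell genes called higher numbered 0 with the muscle share as a covariate.

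Chemokine genes rose in 19 of 31 cases and fell in 3. The ligands of CXCR3, through which interferon-gamma draws in activated T cells, led the list. Cxcl9 was at 6.71, 5.89, 2.67 and 1.82 CPM in the syngeneic and 436, 440.1, 321 and 351 CPM in the allogeneic libraries. Every allogeneic library was above 300 CPM, and the change was 6.50 ± 0.48 (adjusted p = 0.000132). Cxcl10 was at 3.75, 1.88, 3.65 and 2.23 CPM in the syngeneic and 214, 171, 84 and 103 CPM in the allogeneic libraries, with replicates 1 and 2 the higher ones (5.63 ± 0.41, adjusted p = 0.000125), and Cxcl11 at 0.606, 0.86, 0.933 and 0.597 CPM in the syngeneic and 70.4, 57.3, 37.4 and 49.5 CPM in the allogeneic libraries (6.16 ± 0.27, adjusted p = 2.31e-05). Among monocyte attractants, Ccl8 was at 36.5, 58.3, 41.5 and 30.1 CPM in the syngeneic and 778, 1123, 906 and 760 CPM in the allogeneic libraries, with no overlap. It rose by 4.42 ± 0.27, Ccl7 by 3.32 ± 0.20 and Ccl2 by 3.53 ± 0.27. Cxcl13, the attractant of B cells, was at 1.82, 2.33, 1.65 and 1.82 CPM in the syngeneic and 17.7, 21.4, 18.6 and 53.4 CPM in the allogeneic libraries, a change of 3.86 ± 0.41 (adjusted p = 0.000582). Of 20 chemokine receptors, 9 rose and 5 fell. Cxcr6, of tissue-resident T cells, rose by 3.60 ± 0.51 and Ccr8, a skin homing receptor, by 2.56 ± 0.43. Ackr1 and Ackr4 are receptors that bind chemokines without signalling as the others do. Ackr1, of venules, was at 23.7, 24, 24.2 and 23.8 CPM in the syngeneic and 10.3, 7.13, 9.46 and 11 CPM in the allogeneic libraries and fell (-1.34 ± 0.14, adjusted p = 0.000649), and Ackr4 fell too (-1.42 ± 0.20, adjusted p = 0.00205). Chemokine receptors called lower numbered 3 without syngeneic replicate 3 or 4 or allogeneic replicate 1 or 4.

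In the list of the IL-1 and IL-36 family, 16 of 25 genes rose and 1 fell (median 1.00). IL1RAP, a co-receptor that IL-1 and IL-36 cytokines share, is the antibody target of the series. The list is wider than those cytokines and also holds antagonists, receptor genes such as Il18rap, and signalling adaptors. Il36g was at 9.02, 8.72, 17.9 and 24.9 CPM in the syngeneic and 125, 77.4, 88.1 and 175 CPM in the allogeneic libraries. All allogeneic libraries were higher, replicate 4 most of all, and the change was 2.94 ± 0.42 (adjusted p = 0.00205). Il36a was near 0 in syngeneic replicates 1 and 2 and at 33.6, 10.3, 24.4 and 47.4 CPM in allogeneic skin (5.60 ± 0.81, adjusted p = 0.00218), and Il36b rose by 3.61 ± 0.53. The antagonist Il36rn was at 46.5, 52.9, 85.2 and 85.8 CPM in the syngeneic and 331, 222, 324 and 473 CPM in the allogeneic libraries, with no overlap, and rose by 2.32 ± 0.30. Il1a, the preformed keratinocyte cytokine, was at 8.11, 6.96, 9.41 and 13.9 CPM in the syngeneic and 30.8, 19.2, 18.3 and 59.1 CPM in the allogeneic libraries (1.73 ± 0.41, adjusted p = 0.0164). Il1b was at 0.985, 2.46, 4.32 and 1.32 CPM in the syngeneic and 19.3, 12.4, 1.68 and 4.02 CPM in the allogeneic libraries and was not called (2.05 ± 0.77, adjusted p = 0.0817), nor was Il33 (-0.80 ± 0.29, adjusted p = 0.0774). Il1rap was at 13.6, 16.9, 17.8 and 17.8 CPM in the syngeneic and 21.1, 23.9, 19.8 and 26.1 CPM in the allogeneic libraries. The groups parted narrowly, by 0.46 ± 0.14 (adjusted p = 0.0381), and it was not called without syngeneic replicate 1, 2, 3 or 4 or allogeneic replicate 1, 2 or 4 (adjusted p from 0.0533 to 0.0862). The adaptor Myd88 rose by 1.19 ± 0.12 and the kinase Irak2 by 0.82 ± 0.11. IL-1 and IL-36 family genes called higher numbered 9 with the muscle share as a covariate.

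Response genes of TNF and NF-kB rose in 25 of 33 cases and fell in none. Those called higher numbered 10 with the muscle share as a covariate. Vcam1, the adhesion molecule that lymphocytes bind on vessels, was at 10.2, 8.06, 6.19 and 6.19 CPM in the syngeneic and 74.3, 78.5, 37.9 and 43.5 CPM in the allogeneic libraries, a change of 2.94 ± 0.29 (adjusted p = 0.000476). The NF-kB cofactor Bcl3 rose by 1.60 ± 0.17, the receptor Cd40 by 2.55 ± 0.35, the sensor Nod2 by 2.12 ± 0.29, the survival factor Birc3 by 1.23 ± 0.18 and Tnf itself by 2.57 ± 0.40. The promoters of Tnfaip2, of this list, and of Il18rap, of the IL-1 and IL-36 family, are shown because both genes rose and hold the kB motif. Unlike for the other promoters shown, the bases after the RefSeq start of Tnfaip2 were not found in a GENCODE transcript. Capitals mark that motif, GGANTTTCC, to which NF-kB binds, on either strand, and the motif occurs in 1.23% of all promoters in the table.
Il18rap, chr1:40515272-40515361, plus strand: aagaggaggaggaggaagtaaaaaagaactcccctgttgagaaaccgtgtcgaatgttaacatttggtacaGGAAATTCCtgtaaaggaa
Tnfaip2, chr12:111442533-111442622, plus strand: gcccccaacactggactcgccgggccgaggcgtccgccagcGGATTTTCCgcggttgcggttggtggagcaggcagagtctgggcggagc
IL-6 and STAT3 genes moved less evenly, 7 of 20 higher and 2 lower. Stat3 was at 145, 144, 145 and 150.3 CPM in the syngeneic and 269, 259.5, 284 and 265 CPM in the allogeneic libraries, an even change (0.88 ± 0.10, adjusted p = 0.000782). The acute-phase gene Saa3 was at 93.3, 222, 80.5 and 14.1 CPM in allogeneic skin and under 1 CPM in syngeneic skin (7.91 ± 0.98, adjusted p = 0.00113), and Osm rose by 2.59 ± 0.52. Il6 had 32, 16, 11 and 1 counts in the allogeneic and 7, 2, 2 and 0 in the syngeneic libraries, and did not pass the filter on low counts. IL-6 and STAT3 genes called higher numbered 4 with the muscle share as a covariate. IL-6 and STAT3 genes called lower numbered 4 with the muscle share as a covariate.

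Genes of inflammatory cell death rose in 19 of 24 cases and fell in none. The gasdermin C genes, whose products form pores in the plasma membrane, had the largest changes of this list. Gsdmc was at 0.947, 2.05, 1.19 and 5.85 CPM in the syngeneic and 259.7, 319.8, 287 and 383 CPM in the allogeneic libraries. No syngeneic library came near the allogeneic ones, and the change was 6.94 ± 0.64 (adjusted p = 0.000333). Its neighbours Gsdmc2 (6.06 ± 0.59) and Gsdmc3 (8.25 ± 0.70), close in sequence, rose as well. Genes of this list called higher numbered 11 with the muscle share as a covariate. Among necroptosis genes, the sensor Zbp1 was at 17.6, 12.4, 12.6 and 8.62 CPM in the syngeneic and 104, 143, 149 and 78.9 CPM in the allogeneic libraries (3.21 ± 0.28, adjusted p = 0.000259), and the executioner Mlkl rose by 2.13 ± 0.23. Casp1 rose by 1.31 ± 0.17. Of 21 nucleic acid and pattern sensors 11 rose, among them Cgas (1.45 ± 0.16) and Sting1 (1.85 ± 0.26). In the complement list 7 of 22 rose and 2 fell. C6, a part of the membrane attack complex, was at 2.73, 1.39, 0.933 and 1.23 CPM in the syngeneic and 24.7, 18.2, 11.8 and 10.4 CPM in the allogeneic libraries (3.37 ± 0.42, adjusted p = 0.00112). Cd55, which protects cells from complement, was at 53.9, 65, 56.6 and 66.2 CPM in the syngeneic and 23, 27.9, 23 and 23.1 CPM in the allogeneic libraries, lower in every allogeneic library (-1.32 ± 0.11, adjusted p = 0.00025). Complement genes called higher numbered 4 with the muscle share as a covariate.

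**Figure D3:**
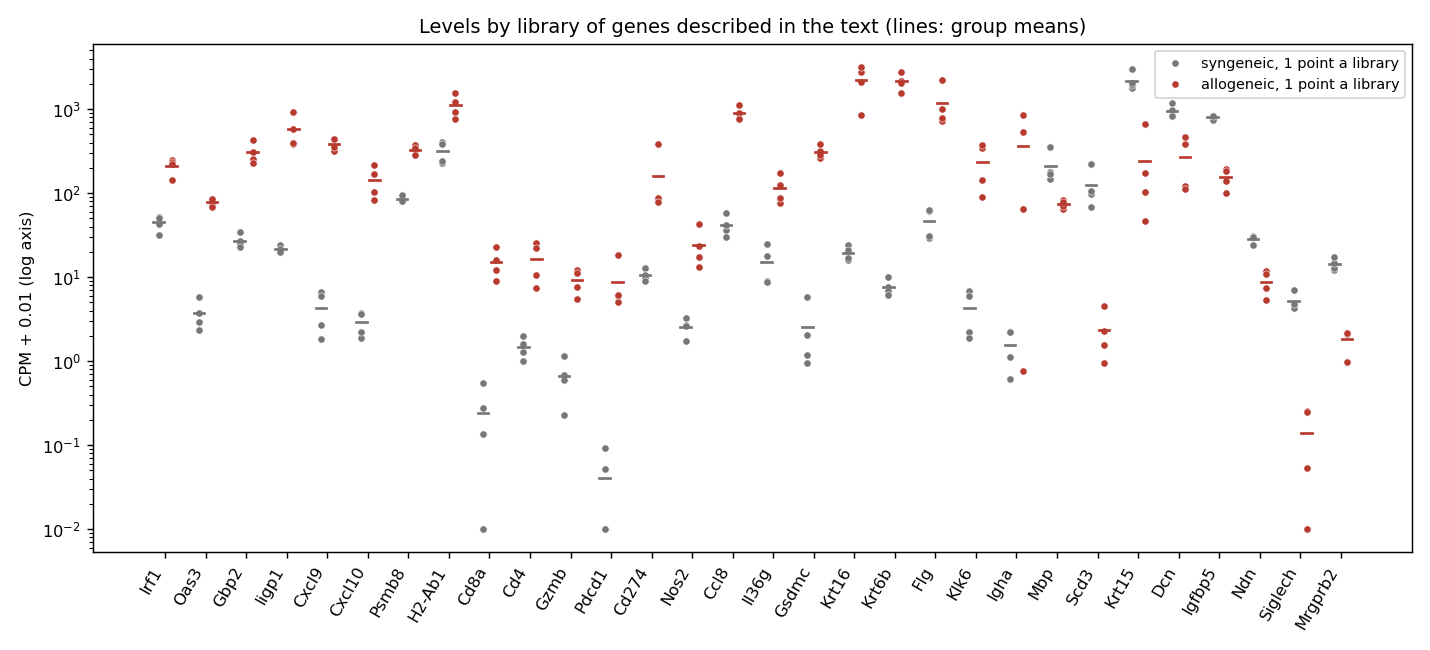
Each point is the CPM (+ 0.01, log axis) of a gene in 1 library, grey for syngeneic and red for allogeneic, and lines are group means. Most genes shown have no overlap between the groups, while Igha in allogeneic replicate 3 sits at syngeneic level and Cd274 in the same library sits above the other 3. The genes were picked largely for low p or lack of overlap, so their parting follows from the choice. Of all genes tested, 15.9% lay wholly above and 14.6% wholly below in allogeneic skin.

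In the epidermis, stress keratins and some keratins of normal differentiation were raised. Krt6b was at 7.69, 10.07, 6.74 and 6.1 CPM in the syngeneic and 2160, 1567, 2787 and 2059 CPM in the allogeneic libraries, the lowest adjusted p of the keratins (8.13 ± 0.34, adjusted p = 1.94e-05). Krt16, its partner in wounded and psoriatic skin, was at 15.8, 16.9, 23.9 and 21 CPM in the syngeneic and 2786, 845, 3169 and 2086 CPM in the allogeneic libraries. Allogeneic replicate 2 was the lowest of its group and still far above syngeneic skin, and the change was 6.84 ± 0.49 (adjusted p = 0.000124). Krt6a rose by 3.77 ± 0.26, though its near-identical sequence to Krt6b leaves the division of reads uncertain. Krt1, of the layers above the basal one, was at 1287, 1138, 2675 and 2194 CPM in the syngeneic and 12570, 10100, 14960 and 19580 CPM in the allogeneic libraries. Every allogeneic library was higher (2.97 ± 0.44, adjusted p = 0.00243). Its partner Krt10 was at 5034, 5093, 8273 and 8542 CPM in the syngeneic and 15020, 15840, 18050 and 23830 CPM in the allogeneic libraries, a change of 1.43 ± 0.40 (adjusted p = 0.0299) that was not called without syngeneic replicate 1, 2, 3 or 4 or allogeneic replicate 2 or 4 (adjusted p from 0.0516 to 0.0834). Basal Krt14 rose by 1.46 ± 0.33, while its partner Krt5 was not called (0.33 ± 0.31, adjusted p = 0.461). Krt8 and Krt19, keratins of simple epithelia and Merkel or gland cells, fell (-5.45 ± 1.39 and -2.75 ± 0.58). Krt8 was highest in syngeneic replicate 1 and changed by -3.25 without it. Krt8 was not called without allogeneic replicate 2 or 4 (adjusted p from 0.0545 to 0.0552). Over 20 epidermal keratins, 7 rose and 4 fell. Those called higher numbered 4 with the muscle share as a covariate. Those called lower numbered 1 without allogeneic replicate 2 and 2 without allogeneic replicate 4. The share of all counts from epidermal keratins was 2.04, 2.17, 3.44 and 2.93% in the syngeneic and 5.88, 4.79, 4.78 and 6.42% in the allogeneic libraries. It was higher in all 4 allogeneic libraries (exact 2-sided permutation p = 0.0286, the smallest that 4 against 4 allows, and adjusted p = 0.2 over 7 shares).

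Cornified envelope genes, whose proteins are cross-linked into the outer shell of the epidermis, rose in 33 of 43 cases and fell in none (median 2.46). Sprr1b was at 0.568, 0, 1.48 and 0.566 CPM in the syngeneic and 514, 81.7, 365 and 386 CPM in the allogeneic libraries. Replicate 2 was again the lowest allogeneic library, and the change was 9.01 ± 1.03 (adjusted p = 0.000807). Sprr2a1 and Sprr2a2 (adjusted p = 0.00025 and 0.000221) rose by 8.54 ± 0.74 and 8.57 ± 0.73, in a family of near-copies, Sprr2b was at least 117-fold higher, and Lce3d rose by 8.77 ± 1.45. Filaggrin, Flg, was at 29.5, 31.1, 61.1 and 63.1 CPM in the syngeneic and 1014, 716, 785 and 2241 CPM in the allogeneic libraries, highest in allogeneic replicate 4 (4.69 ± 0.50, adjusted p = 0.000618). The cross-linking enzyme Tgm3 was at 10.8, 6.18, 7.59 and 4.15 CPM in the syngeneic and 98.8, 73.8, 92.7 and 81 CPM in the allogeneic libraries (3.60 ± 0.28, adjusted p = 0.000169). The other large rises in CPM were of the differentiation genes Calm4 (2.26 ± 0.45), Asprv1 (2.28 ± 0.42) and Lgals7 (1.30 ± 0.37). Lgals7 was not called without syngeneic replicate 1 or 2 or allogeneic replicate 2 or 4 (adjusted p from 0.0546 to 0.0799).

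Epidermal proteases and protease inhibitors were raised. Of 22 kallikrein and related genes 11 rose and none fell. Those called higher numbered 7 with the muscle share as a covariate. Klk6, a trypsin-like serine protease, was at 2.24, 1.88, 6.78 and 6 CPM in the syngeneic and 342, 90.2, 143 and 373 CPM in the allogeneic libraries, with replicates 1 and 4 the higher ones (5.81 ± 0.68, adjusted p = 0.000857). Klk13 rose by 4.82 ± 0.62, Klk9 by 2.89 ± 0.47, the membrane protease Tmprss11d by 7.20 ± 0.77 and Casp14, which helps to process filaggrin, by 2.75 ± 0.37. Among 19 clade B serpins 9 rose and 2 fell. Serpinb3a was at 0.0379, 0, 0.127 and 0.0314 CPM in the syngeneic and 23.7, 17.6, 28.4 and 21.8 CPM in the allogeneic libraries (8.77 ± 0.45, adjusted p = 4.71e-05). Serpinb3b (2.66 ± 0.33), Serpinb12 (3.89 ± 0.51) and Serpinb13 (4.42 ± 0.60) rose, while Serpinb6e fell (-5.49 ± 1.06). In the antimicrobial list 9 of 18 rose, led by the protease inhibitor gene Wfdc12 (5.79 ± 0.49).

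Barrier lipid genes were higher in 14 of 27 cases and lower in 1. Degs2, which makes the phytoceramides of skin, was at 4.4, 7.86, 6.87 and 5.66 CPM in the syngeneic and 60.6, 22.8, 32.1 and 65.2 CPM in the allogeneic libraries (2.87 ± 0.37, adjusted p = 0.00131), and the elongase Elovl7 rose by 2.27 ± 0.35. The desmosomal cadherin Dsg1b rose by 2.09 ± 0.21 and Dsc1 by 1.78 ± 0.24, while Pkp2 and the tight junction gene Cldn23 fell (-1.70 ± 0.36 and -1.48 ± 0.28), so that 7 of 27 junction genes rose and 3 fell. Junction genes called higher numbered 4 with the muscle share as a covariate. Barrier lipid genes called higher numbered 9 without syngeneic replicate 1 and 4 with the muscle share as a covariate.

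The basement membrane list was divided. Lama3, a laminin chain that keratinocytes make, rose (1.16 ± 0.19, adjusted p = 0.00333). Nid1 was at 191, 159, 93.1 and 141 CPM in the syngeneic and 58.7, 51, 58.8 and 49.7 CPM in the allogeneic libraries and fell (-1.42 ± 0.21, adjusted p = 0.00221), as did Nid2 (-1.79 ± 0.33), Lamc1 (-0.76 ± 0.14) and the proteoglycan Hspg2 (-0.84 ± 0.18), which vessels, nerves and mesenchyme also make. Of 21 genes 4 rose and 6 fell. Basement membrane genes called higher numbered 2 without syngeneic replicate 1, 2 or 4 or allogeneic replicate 2 and 2 with the muscle share as a covariate. Basement membrane genes called lower numbered 2 with the muscle share as a covariate.

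Wound and growth signals of keratinocytes were raised. Of 21 wound genes 14 rose and 1 fell. The matrix protein Tnc was at 11.4, 9.87, 9.12 and 7.04 CPM in the syngeneic and 237, 133, 101 and 112 CPM in the allogeneic libraries (3.96 ± 0.31, adjusted p = 0.000171). The collagenase Mmp13 rose by 6.88 ± 0.87, the AP-1 subunit Fosl1 by 1.94 ± 0.19 and the hyaluronan receptor Cd44 by 1.21 ± 0.16. Among EGF receptor ligands, Ereg was at 11.1, 10.7, 10.3 and 12.4 CPM in the syngeneic and 48.7, 61, 56.8 and 166 CPM in the allogeneic libraries, with replicate 4 the highest by far (2.89 ± 0.40, adjusted p = 0.00174). Hbegf rose by 1.73 ± 0.39 and the ERBB3 ligand Nrg1 by 3.65 ± 0.39, while Btc, betacellulin, was at 32.8, 40.8, 41.8 and 48.2 CPM in the syngeneic and 6.49, 11.2, 6.1 and 16.6 CPM in the allogeneic libraries and fell (-2.02 ± 0.32, adjusted p = 0.00321). Of 21 EGF receptor genes 8 rose and 3 fell. EGF receptor genes called higher numbered 4 without syngeneic replicate 3 or 4 or allogeneic replicate 4, 5 without syngeneic replicate 1 or 2 or allogeneic replicate 1 and 3 with the muscle share as a covariate.

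Of 36 cell cycle genes 10 rose and none fell. Cell cycle genes called higher numbered 5 without syngeneic replicate 1 or 4, 6 without allogeneic replicate 1 or 2, 23 without allogeneic replicate 3 and 1 with the muscle share as a covariate. The lowest p was not of a proliferation gene but of the cell cycle inhibitor Cdkn2a, at 0.72, 0.164, 0.0848 and 0.44 CPM in the syngeneic and 5.33, 13, 11.3 and 5.85 CPM in the allogeneic libraries (4.61 ± 0.60, adjusted p = 0.0014). The nucleotide reductase Rrm2 rose by 1.24 ± 0.25 and Ccne1 by 1.47 ± 0.35.

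Of 25 sebaceous gland genes 10 fell and 2 rose (median -1.21). Scd3, a desaturase of sebocytes, was at 69.2, 98.4, 225 and 105 CPM in the syngeneic and 4.47, 2.29, 0.928 and 1.54 CPM in the allogeneic libraries. All 4 allogeneic libraries were below 5 CPM, and the change was -5.74 ± 0.59 (adjusted p = 0.000522). Cyp2g1 (-6.01 ± 0.82), the wax synthase Awat2 (-4.65 ± 0.73) and the melanocortin receptor Mc5r (-2.08 ± 0.26) fell as well. Fabp5, a fatty acid carrier that keratinocytes share, was at 93.5, 98, 237 and 162 CPM in the syngeneic and 1595, 1009, 1459 and 1693 CPM in the allogeneic libraries and rose (3.28 ± 0.36, adjusted p = 0.000703). Of 33 cholesterol and fatty acid synthesis genes, 5 rose (15.2%, against 14.3% of all genes), among them Cyp51 (0.85 ± 0.19), and none fell. Synthesis genes called higher numbered 3 without syngeneic replicate 1, 2, 3 or 4 or allogeneic replicate 1 and 0 with the muscle share as a covariate.

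Follicle stem cell and papilla genes fell in 9 of 23 cases and rose in none. Krt15, a keratin of the follicle bulge and basal layer, was at 1787, 1917, 2989 and 2050 CPM in the syngeneic and 659, 172, 46.6 and 102 CPM in the allogeneic libraries. The allogeneic libraries ranged widely, from replicate 1 as the highest to replicate 3 as the lowest, and all lay below the syngeneic ones (-3.16 ± 0.77, adjusted p = 0.0189). Krt15 was not called without allogeneic replicate 2 (adjusted p = 0.0547). Cd34, which marks bulge cells and also dermal and vascular cells, was at 239.7, 300.5, 302 and 287 CPM in the syngeneic and 102, 41.3, 66.4 and 78.7 CPM in the allogeneic libraries (-1.97 ± 0.26, adjusted p = 0.00141). Fgf18, which holds follicles in rest, was at 14.3, 12.4, 26.3 and 17.1 CPM in the syngeneic and 7.05, 0.683, 0.707 and 0.414 CPM in the allogeneic libraries, with allogeneic replicate 1 the highest of its group (-2.96 ± 0.85, adjusted p = 0.034, and -4.83 without that library). Fgf18 was not called without syngeneic replicate 1, 2, 3 or 4 or allogeneic replicate 2, 3 or 4 (adjusted p from 0.051 to 0.079). The WNT agonist Rspo3 fell by 1.69 on the log2 scale, with SE 0.36. Follicle and papilla genes called lower numbered 4 without allogeneic replicate 2 and 5 without syngeneic replicate 1, 2, 3 or 4 or allogeneic replicate 4.

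Hair shaft and sheath genes were divided by library rather than by group. Of 11 hair keratin and associated genes 1 rose and 1 fell (3 fell without allogeneic replicate 1). Tchh, of the inner root sheath, was at 3.68, 4.83, 5.17 and 4.78 CPM in the syngeneic and 92.2, 3.95, 5.48 and 9.58 CPM in the allogeneic libraries, so that replicate 1 alone stood out (2.59 ± 0.98, adjusted p = 0.0849), and Krt73 was at 38.8, 1.32, 0.928 and 3.72 CPM in allogeneic skin (4.99 ± 1.54, adjusted p = 0.0442, and 2.50 without replicate 1). Krt73 was not called without syngeneic replicate 1, 2, 3 or 4 or allogeneic replicate 1 or 4 (adjusted p from 0.0573 to 0.134). Hair keratin genes called higher numbered 4 without allogeneic replicate 3. Of 36 WNT and BMP genes 8 fell and 2 rose. The secreted antagonists Sfrp2 (-3.07 ± 0.62) and Sfrp4 (-3.18 ± 0.69) fell with the WNT target Axin2 (-0.54 ± 0.10), while Wnt10a (0.93 ± 0.15) and Wnt7b (0.69 ± 0.18), ligands of the epidermis, rose. Wnt7b was not called without syngeneic replicate 1, 2 or 4 (adjusted p from 0.0523 to 0.061). WNT and BMP genes called lower numbered 4 without syngeneic replicate 1 or 2 or allogeneic replicate 4, 5 without syngeneic replicate 3 and 14 without allogeneic replicate 1. Of 8 melanocyte genes 2, Tyr (2.90 ± 0.36) and Tyrp1 (1.77 ± 0.39), rose from low levels.

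In the dermis, fibroblast identity genes fell in 20 of 37 cases and rose in 2 (median -1.37). Clec3b, tetranectin, was at 261, 263, 237 and 334 CPM in the syngeneic and 44.9, 20.9, 26 and 59 CPM in the allogeneic libraries. Every allogeneic library was far below the lowest syngeneic one, and the change was -2.86 ± 0.33 (adjusted p = 0.000857). Dcn, the proteoglycan decorin, was at 863, 979.6, 1173 and 819 CPM in the syngeneic and 383, 123, 113 and 464 CPM in the allogeneic libraries, with replicates 2 and 3 the lowest (-1.82 ± 0.48, adjusted p = 0.0241). Dcn was not called without syngeneic replicate 2 or 3 or allogeneic replicate 2 (adjusted p from 0.0509 to 0.0582). Dpt (-2.41 ± 0.44), Ogn (-2.78 ± 0.37), Pi16 (-2.62 ± 0.53) and Dpp4 (-1.43 ± 0.20), genes of reticular and adventitial fibroblasts, fell too, as did the growth factor carrier Igfbp5, at 793, 839, 738 and 839.9 CPM in the syngeneic and 193, 99.1, 183 and 141 CPM in the allogeneic libraries (-2.38 ± 0.23, adjusted p = 0.000399). Ly6a, one of the 2 that rose, was at 206, 191, 204 and 200.5 CPM in the syngeneic and 712, 733, 744 and 571 CPM in the allogeneic libraries (1.78 ± 0.14, adjusted p = 0.000181) and is known to be induced by interferon in several cell types. Gsn, gelsolin, was at 5216, 3928, 3214 and 3656 CPM in the syngeneic and 1321, 1204, 768 and 1575 CPM in the allogeneic libraries (-1.72 ± 0.30, adjusted p = 0.00508). With Igfbp5 and Dcn it was among the 12 largest losses in CPM, as were the kinase Ak1 (-1.84 ± 0.57), the caveolar gene Cavin1 (-1.09 ± 0.18) and the plasma peroxidase gene Gpx3 (-1.03 ± 0.31). These 3 are not of the fibroblast list, and Ak1 and Gpx3 were not called with the muscle share as a covariate.

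Collagen genes did not rise as a group. Of 33 genes 9 fell and 2 rose (median -0.66). The main fibrillar collagens of dermis, Col1a1 (-0.97 ± 0.55, adjusted p = 0.225), Col1a2 (-1.05 ± 0.50, adjusted p = 0.157) and Col3a1 (-1.13 ± 0.55, adjusted p = 0.165), were not called. Col1a1 was at 1105, 955, 1383 and 805 CPM in the syngeneic and 1137, 214, 192 and 620.5 CPM in the allogeneic libraries, so that replicate 1 was at syngeneic level and the other 3 allogeneic libraries lower. The share of counts from collagen genes was 0.858, 0.753, 0.79 and 0.596% in the syngeneic and 0.82, 0.343, 0.22 and 0.444% in the allogeneic libraries (exact 2-sided permutation p = 0.1143, adjusted p = 0.2). Collagen genes called lower numbered 15 without allogeneic replicate 1. Col15a1 (-2.08 ± 0.37), Col6a6 (-3.0 ± 0.48) and Col4a5 (-1.15 ± 0.15) fell. Col12a1, which decorates fibrils in wounds and under tension, was at 27.6, 34.6, 22.2 and 25.2 CPM in the syngeneic and 126, 62, 68.3 and 86 CPM in the allogeneic libraries and rose (1.64 ± 0.24, adjusted p = 0.00237).

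In matrix assembly and the myofibroblast program changes went both ways, with 6 of 44 higher and 4 lower, shares near those of all genes. Matrix genes called lower numbered 8 without allogeneic replicate 1 and 11 with the muscle share as a covariate. Besides Tnc, the matricellular genes Thbs1 (2.16 ± 0.25) and Ccn1 (1.45 ± 0.22) and the collagen hydroxylase P4ha3 (1.91 ± 0.34) rose. Fap, a protease of activated fibroblasts, was at 21.6, 23.2, 16.5 and 21.7 CPM in the syngeneic and 5.93, 5.52, 2.79 and 4.73 CPM in the allogeneic libraries and fell (-2.13 ± 0.24, adjusted p = 0.000805), as did the matrix protein Tnxb (-1.29 ± 0.20). The myofibroblast actin Acta2 (-0.09 ± 0.36, adjusted p = 0.876) and fibronectin Fn1 (-0.25 ± 0.36, adjusted p = 0.644) were not called. TGF-beta genes split as well, 4 of 28 higher, a share like the 14.3% of all genes, and 8 lower (28.6%, against 11.1%). Tgfb1 was at 48.3, 47.6, 53.5 and 38.2 CPM in the syngeneic and 89.2, 86.8, 56.8 and 60.4 CPM in the allogeneic libraries and rose (0.64 ± 0.18, adjusted p = 0.0324), with the feedback gene Skil (1.41 ± 0.11) and the activin subunit Inhba (1.56 ± 0.39). Tgfb1 was not called without syngeneic replicate 1, 2 or 4 or allogeneic replicate 1 or 2 (adjusted p from 0.0687 to 0.0856). Inhba was not called without syngeneic replicate 1, 2 or 3 (adjusted p from 0.05 to 0.0554). Tgfb3 fell (-0.97 ± 0.18), and so did the latency proteins Ltbp4, at 339.6, 335, 310.4 and 261 CPM in the syngeneic and 137, 116, 101 and 125 CPM in the allogeneic libraries (-1.38 ± 0.14, adjusted p = 0.000567), and Ltbp3 (-1.15 ± 0.19). TGF-beta genes called higher numbered 2 without syngeneic replicate 2, 3 or 4 and 2 with the muscle share as a covariate. Those called lower numbered 4 without syngeneic replicate 2 or allogeneic replicate 2 and 5 without syngeneic replicate 4. Of 31 matrix proteases and inhibitors 8 rose and 7 fell. The leukocyte protease Adam8 rose by 2.14 ± 0.29, while Adamtsl3 (-2.19 ± 0.22) and the inhibitor Timp2 (-1.02 ± 0.16) fell. Protease and inhibitor genes called higher numbered 5 with the muscle share as a covariate. Protease and inhibitor genes called lower numbered 11 without allogeneic replicate 1.

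Of 36 ligands and receptors of the PDGF, VEGF and FGF families 1 rose and 6 fell (16.7%, against 11.1% of all genes). Tek, the angiopoietin receptor, was at 23.9, 23, 19.3 and 28 CPM in the syngeneic and 8.55, 8.45, 8.89 and 8.39 CPM in the allogeneic libraries, alike in all 4 allogeneic libraries (-1.46 ± 0.13, adjusted p = 0.000318). Kdr, the main VEGF receptor, fell by 1.26 on the log2 scale, with SE 0.32 (adjusted p = 0.0218). Kdr was not called without allogeneic replicate 4 (adjusted p = 0.0563). Genes of this list called higher numbered 4 without allogeneic replicate 4. Those called lower numbered 3 without syngeneic replicate 1, 2 or 4 or allogeneic replicate 2 or 4. The fibroblast receptor Pdgfra was not called (-1.13 ± 0.50, adjusted p = 0.131). Among 27 endothelial genes, 4 rose, a share near the 14.3% of all genes, among them Icam1 (1.52 ± 0.27). In the same list 2 fell (7.4%, against 11.1%). Endothelial genes called higher numbered 2 without syngeneic replicate 1 or 4 and 1 with the muscle share as a covariate. Of 13 pericyte and smooth muscle genes 1 rose and 1 fell.

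Some nerve genes were lower. Of 19 Schwann cell genes 7 fell and none rose. Mbp, a protein of the myelin sheath, was at 354, 179.8, 148 and 168 CPM in the syngeneic and 64.3, 70.2, 81.8 and 78.7 CPM in the allogeneic libraries. Syngeneic replicate 1 was the highest by far, and all allogeneic libraries lay below the others too (-1.53 ± 0.28, adjusted p = 0.00567). In edgeR no Schwann cell gene was called lower with the muscle share as a covariate. The neuropeptide gene Cartpt was at 2.65, 2.91, 13.9 and 2.86 CPM in syngeneic skin and at 0 in all allogeneic libraries (at least 155-fold lower), as was Bsnd, a chloride channel subunit (at least 104-fold lower), and in both syngeneic replicate 3 was the highest. The relaxin receptor Rxfp1 was at 3.79, 2.99, 2.63 and 2.48 CPM in the syngeneic and 0, 0, 0 and 0.0591 CPM in the allogeneic libraries (-7.42 ± 0.61, adjusted p = 0.000197), and the neurotrophin Ntf3 fell (-1.58 ± 0.31). Other genes with the largest losses were the hepcidin gene Hamp2 (-6.20 ± 0.71), the mucin glycosyltransferase gene A4gnt (-4.77 ± 0.81) and the lipase-like AAdacl4fm3 (-4.75 ± 1.18). Of 16 Merkel cell and sweat gland genes 4 rose, among them the sodium channel subunits Scnn1a (1.45 ± 0.20) and Scnn1b (2.04 ± 0.36), and 3 fell.

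Of 20 adipocyte genes 3 fell (15.0%, against 11.1% of all genes) and none rose. The median of the list was -1.11, with a wide spread. Adipocyte genes called lower numbered 5 without allogeneic replicate 2. The hormone gene Lep was at 119.9, 68, 28.9 and 48.6 CPM in the syngeneic and 3.7, 4.25, 0.575 and 2.42 CPM in the allogeneic libraries (-4.60 ± 0.65, adjusted p = 0.00195) and Car3 at 6192, 3242, 1976 and 2448 CPM in the syngeneic and 957, 1356, 1042 and 768 CPM in the allogeneic libraries (-1.75 ± 0.40, adjusted p = 0.0147), both highest in syngeneic replicate 1. Nnat, an imprinted gene of fat and follicles, was at 282, 138, 81.5 and 87.7 CPM in the syngeneic and 0.387, 1.02, 0.707 and 0.887 CPM in the allogeneic libraries (-7.62 ± 0.57, adjusted p = 0.000141). Imprinted genes were lower. Among 19 imprinted growth genes 10 fell and 1 rose. Cdkn1c, a cell cycle inhibitor, was at 43, 39.4, 34.7 and 40.1 CPM in the syngeneic and 3.44, 5.52, 16.1 and 10.8 CPM in the allogeneic libraries (-2.13 ± 0.42, adjusted p = 0.00827), and Ndn at 30.6, 30.1, 24.3 and 29.7 CPM in the syngeneic and 11.7, 10.9, 5.31 and 7.39 CPM in the allogeneic libraries (-1.70 ± 0.24, adjusted p = 0.00216). Sgce (-1.41 ± 0.23) and Mest (-1.25 ± 0.21) fell and Phlda2 rose (1.95 ± 0.40). Imprinted genes called lower numbered 5 with the muscle share as a covariate. Mstn, which muscle and fat make to restrain growth, fell as well (-4.97 ± 0.89).

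Of 22 immediate early genes 9 rose, including Junb, at 105, 104, 124 and 109 CPM in the syngeneic and 346, 300.1, 226 and 369 CPM in the allogeneic libraries (1.49 ± 0.17, adjusted p = 0.000819), and of 19 unfolded protein response genes 8 rose, among them Atf4 (0.67 ± 0.12). Immediate early genes called higher numbered 4 without syngeneic replicate 1, 5 without syngeneic replicate 4 and 3 with the muscle share as a covariate. Unfolded protein genes called higher numbered 2 without syngeneic replicate 4, 3 without syngeneic replicate 2 or 3 or allogeneic replicate 4, 4 without allogeneic replicate 2, 5 without syngeneic replicate 1 or allogeneic replicate 1 and 4 with the muscle share as a covariate. Of 15 heat shock chaperones 2 rose (13.3%, against 14.3% of all genes) and none fell. Hypoxia and glycolysis genes rose in 7 of 23 cases. The carbonic anhydrase Car12 was at 14.7, 19.3, 28.9 and 23.6 CPM in the syngeneic and 157, 130.5, 87.2 and 155 CPM in the allogeneic libraries (2.61 ± 0.26, adjusted p = 0.000463), and Eno1 rose by 1.29 ± 0.17. Tpi1, of glycolysis too, fell (-0.83 ± 0.24). Tpi1 was not called without syngeneic replicate 1, 2, 3 or 4 or allogeneic replicate 1, 2 or 4 (adjusted p from 0.0513 to 0.0935). Among 29 oxidative stress genes, Gsto1 (1.65 ± 0.17) and the cystine carrier Slc7a11 (2.95 ± 0.48) rose and Gstm1 fell (-1.26 ± 0.16), with 6 higher and 8 lower in all. Oxidative stress genes called lower numbered 3 without syngeneic replicate 1 or 4 or allogeneic replicate 4, 4 without syngeneic replicate 2 or 3 or allogeneic replicate 1 or 2 and 2 with the muscle share as a covariate.

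In the list of arginine, tryptophan and purine metabolism 9 of 20 genes rose and 2 fell. Ass1, which remakes arginine, was at 13.9, 19.7, 20.6 and 15.8 CPM in the syngeneic and 94.9, 73.4, 58.2 and 68.1 CPM in the allogeneic libraries (2.07 ± 0.19, adjusted p = 0.000318), the arginine carrier Slc7a1 rose by 1.18 ± 0.14 and the purine enzyme Ada by 1.82 ± 0.27. The prostaglandin E synthase Ptges was at 62.3, 52, 49 and 51 CPM in the syngeneic and 152, 145, 155 and 179 CPM in the allogeneic libraries (1.56 ± 0.12, adjusted p = 0.000156), and the lipoprotein phospholipase Pla2g7 rose by 2.68 ± 0.32, among 9 of 23 such genes higher and 1 lower. Prostaglandin and leukotriene genes called higher numbered 4 without syngeneic replicate 1, 5 without syngeneic replicate 3 and 4 with the muscle share as a covariate. Of 33 retinoid, steroid and xenobiotic enzymes 7 rose and 3 fell. Enzymes called higher numbered 4 with the muscle share as a covariate. Enzymes called lower numbered 5 without allogeneic replicate 3 and 7 with the muscle share as a covariate. Among those that fell, Akr1c18, which inactivates progesterone, was at 21.3, 20.1, 59.2 and 25.7 CPM in the syngeneic and 1.98, 1.07, 1.95 and 2.78 CPM in the allogeneic libraries (-4.02 ± 0.45, adjusted p = 0.000745), and Cyp1a1, the classic target of the aryl hydrocarbon receptor, changed by -2.92 ± 0.46. The glucocorticoid receptor Nr3c1 fell (-0.88 ± 0.13), while Fkbp5, a glucocorticoid-induced chaperone, was at 49.1, 25.2, 18.1 and 16 CPM in the syngeneic and 82.8, 129, 246 and 194 CPM in the allogeneic libraries and rose (2.59 ± 0.45, adjusted p = 0.00495). Among clock genes, Nr1d1 was at 322, 270.3, 269 and 327 CPM in the syngeneic and 149.9, 135, 169.8 and 138 CPM in the allogeneic libraries and fell (-1.0 ± 0.13, adjusted p = 0.00154), while Nfil3, which it is known to repress, rose (1.46 ± 0.23). Of 17 clock genes 2 rose and 2 fell, shares near those of all genes. The labels do not name the hour of sampling.

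None of 20 nuclear genes of oxidative phosphorylation was called by edgeR, though 1 had an unadjusted p under 0.05, and DESeq2 called 0 and limma voom 0. Oxidative phosphorylation genes called lower numbered 12 without allogeneic replicate 3. None of 20 ribosomal protein genes was called by edgeR either, though 0 had an unadjusted p under 0.05, and DESeq2 called 0 and limma voom 0.

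**Figure D4:**
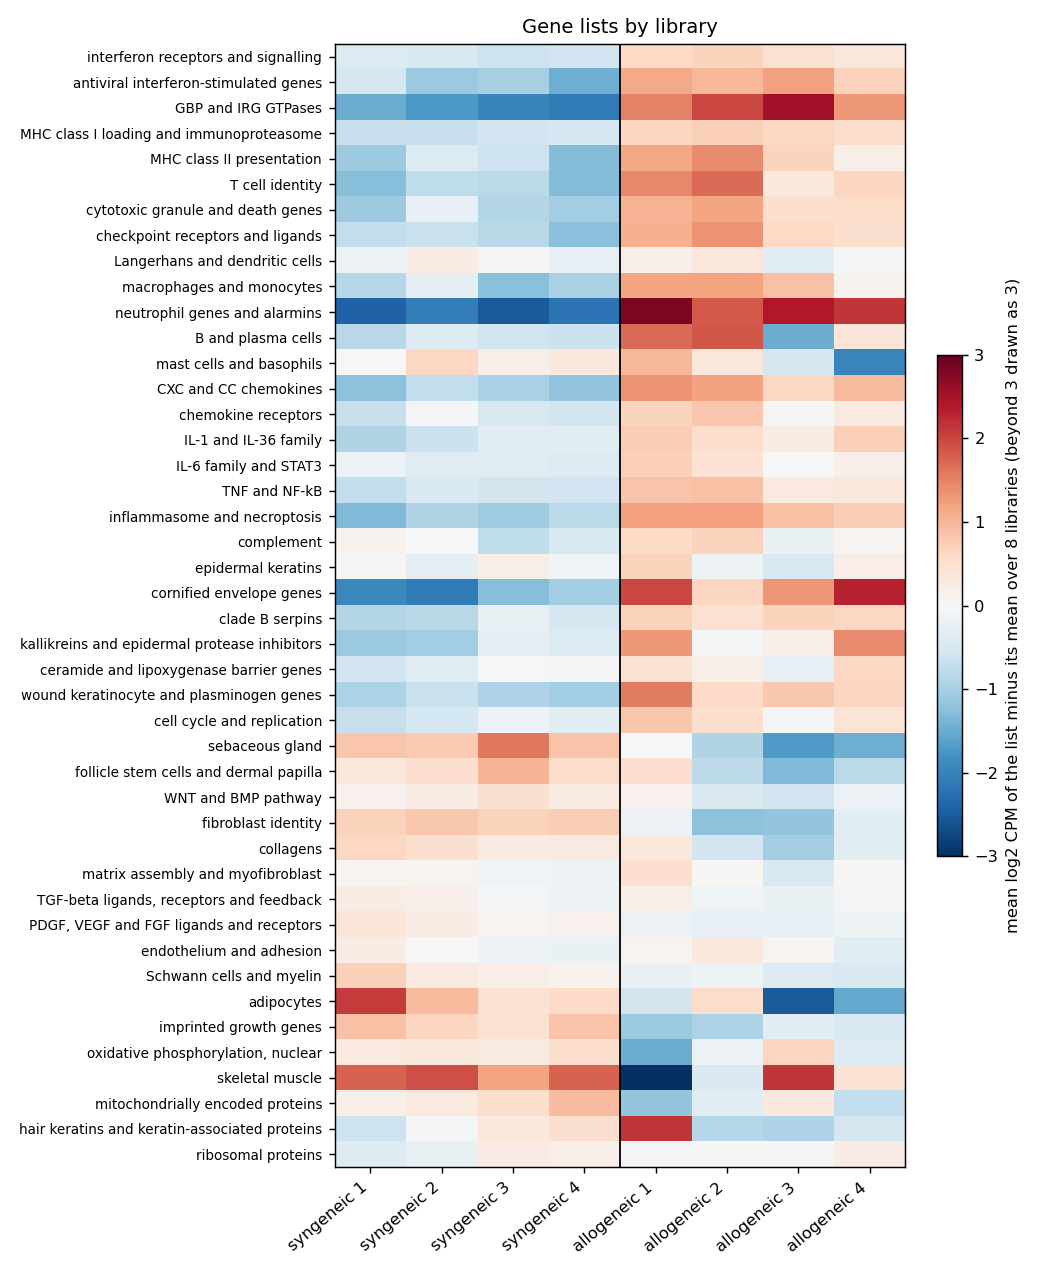
Each cell is the mean log2 CPM of a list's tested genes in 1 library minus the list's mean over all 8 libraries, red for higher and blue for lower. The interferon lists are higher in all 4 allogeneic libraries than in any syngeneic one, the GTPase list unevenly so. Skeletal muscle, hair keratin, B cell and adipocyte rows differ widely among the allogeneic libraries.

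The allogeneic libraries were less alike than the syngeneic ones. The first principal component (55.53% of variance) placed the syngeneic libraries between -79 and -67.67 and the allogeneic ones between 46.38 (replicate 3) and 109.89 (replicate 1). The second (22.13%) ran from -90.97 in allogeneic replicate 3 to 87.96 in allogeneic replicate 1, with the syngeneic libraries from 4.08 to 23.58. The 10 most variable genes among the allogeneic libraries (of those with at least 10 CPM) were muscle genes such as Acta1, Myh4 and Tnnc2. Acta1, skeletal actin, was at 10270, 12330, 8192 and 12250 CPM in the syngeneic and 0.172, 3073, 15240 and 7288 CPM in the allogeneic libraries. It was all but absent from replicate 1 and highest of all in replicate 3, and was not called (-0.75 ± 1.58, adjusted p = 0.758). The muscle share of counts did not part the groups, since replicate 3 lay among the syngeneic libraries (exact 2-sided permutation p = 0.0857, adjusted p = 0.2). Mitochondrially encoded transcripts took 4.09, 3.67, 4.12 and 5.08% in the syngeneic and 1.6, 2.46, 3.68 and 1.75% in the allogeneic libraries (exact permutation p = 0.0571, adjusted p = 0.2). Replicate 3 also had the slow-muscle gene Tnnt1 at 392 CPM, against 1.22 to 11.6 CPM in the other 7 libraries. Of 13 mitochondrially encoded and 23 muscle genes edgeR called none. Mitochondrially encoded genes called lower numbered 11 without allogeneic replicate 3. Muscle genes called lower numbered 4 without allogeneic replicate 1. For the mitochondrial list 10 had an unadjusted p under 0.05, and DESeq2 called 9 and limma voom 3. For the muscle list 3 had an unadjusted p under 0.05, and DESeq2 called 2 and limma voom 0.

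**Figure D5:**
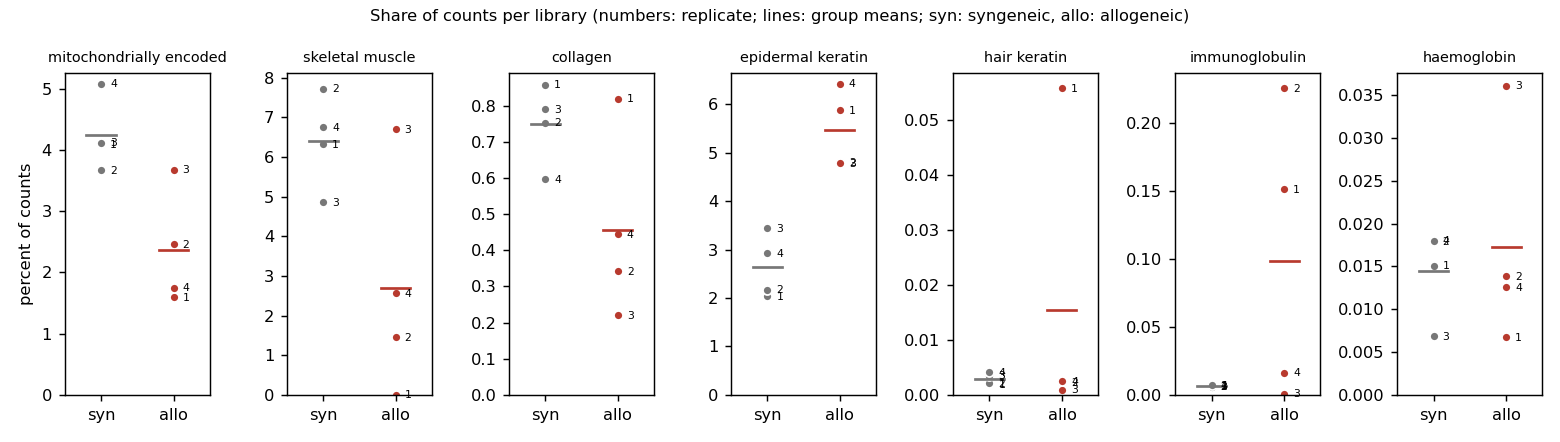
Points are the percent of a library's counts that came from each gene group, numbered by replicate, with lines at the group means. Epidermal keratin is higher in all 4 allogeneic libraries, muscle nearly absent from allogeneic replicate 1, and antibody RNA highest in allogeneic replicates 1 and 2. The antibody share in allogeneic replicate 4 is 0.0163%, above the 0.0059 to 0.00693% of syngeneic libraries.

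Genes of the Y chromosome parted the groups completely. Eif2s3y was at 2.24, 2.99, 1.7 and 1.7 CPM and Ddx3y at 1.4, 1.8, 0.466 and 0.818 CPM in the syngeneic libraries, and both were at 0 in all 4 allogeneic libraries. Xist, transcribed from the inactive X chromosome of female cells, was at 347, 335, 342 and 364 CPM in the syngeneic and 289.5, 316, 245 and 293 CPM in the allogeneic libraries and was not called (-0.28 ± 0.13, adjusted p = 0.138). Each library thus held Xist RNA at a high level, and the syngeneic ones a low level of Y-linked RNA beside it. The labels do not name the sex of donors and recipients, and its part in the other results was not tested.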

How the data were processed

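Skin RNA was counted per gene in 21 libraries, of which the 4 syngeneic and 4 allogeneic isotype-treated ones enter the main fit. The deposited table holds whole-number read counts for 64050 gene symbols. Per the submitters' processing notes, FastQC, Trimmomatic, STAR and featureCounts were used with GRCm39. Their versions and settings, the annotation and the strand handling are not stated in the labels or headers. Per the labels' protocols the kit does not mark strand, so reads of overlapping antisense genes cannot be told apart.

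Counts were filtered (filterByExpr, minimum count 10), scaled by TMM and tested with edgeR 4.0.16 (quasi-likelihood F test, Benjamini-Hochberg adjustment, R 4.3.3). The SE is the size of the log2 fold change divided by the square root of F. For a gene at 0 in a group, the fold is a bound against 3 counts over that group. Shares of counts were compared by exact 2-sided permutation tests. DESeq2 1.42.0, limma 3.58.1 (voom), other scalings and filters, a replicate block, a muscle covariate and leaving out each library were tried as alternatives. Tested on data simulated for this comparison over 18463 genes, the procedure recovered 87 of 100 genes changed 4-fold and 28 of 100 changed 2-fold, with 12 false calls. In that simulation the changed genes were well counted and far fewer than those called here, so its rates may not carry over to the data. Promoter sequences are from RefSeq (GRCm38.p6).

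The genes named are the 15 largest fold changes and 12 largest differences in CPM per direction without overlap, the 6 lowest p of each gene list, a set of fixed genes and the 10 most variable among allogeneic libraries, of which the text gives most, and a few of them are not reported here. The members and the lists were chosen with earlier results of these data known. No number of replicates says whether samples are separate mice, and counts give sampling error only. No 2 libraries agreed within counting noise.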

Additional observations from a re-analysis of the deposited data

Results flagged for a closer look

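For each gene named in the text and each share of counts, the 4 libraries of a group were examined for 1 that lay far from the other 3 (Dixon's test at its 95% limit). Of 600 such groups 45 (7.5%) passed the limit, where chance alone gives about 1 in 20 for values that vary freely. In 6 of them the other 3 libraries were all at 0, so that reads in 1 library set the outcome. The values follow by library, in CPM, with those of the other 3 libraries of the group.

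In syngeneic replicate 1 Col15a1 was at 212 against 115 to 131, Krt8 was at 28.5 against 0.723 to 3.48, Mbp was at 354 against 148 to 179.8 and Pkp2 was at 15.5 against 6 to 6.59. In the same library Rspo3 was at 2.35 against 4.06 to 4.16, Stat2 was at 49.9 against 37 to 38.8 and Tgfb3 was at 43.7 against 29.9 to 32. In syngeneic replicate 2 Clec4e was at 0.164 against 0, Ctss was at 151 against 44.6 to 54.5, Klrc1 was at 0.819 against 0.227 to 0.314 and Stfa2 was at 0.0819 against 0. In the same library Timp2 was at 637 against 526 to 539. In syngeneic replicate 3 Akr1c18 was at 59.2 against 20.1 to 25.7, Bsnd was at 8.86 against 1.59 to 2.29, Cartpt was at 13.9 against 2.65 to 2.91 and Ccr8 was at 0.509 against 0.164 to 0.19. In the same library Ndn was at 24.3 against 29.7 to 30.6, Serpinb6e was at 35.6 against 8.68 to 11.9 and Tmprss11d was at 0.0424 against 0. In syngeneic replicate 4 Sprr2a1 was at 0.597 against 0 to 0.0819 and Stat3 was at 150.3 against 144 to 145. In allogeneic replicate 1 AAdacl4fm3 was at 1.46 against 0, Csta3 was at 10.6 against 1.95 to 2.7, Cxcr2 was at 13.2 against 19.6 to 20.4 and Cyp2g1 was at 4.6 against 0.398 to 1. In the same library Fgf18 was at 7.05 against 0.414 to 0.707, Krt73 was at 38.8 against 0.928 to 3.72, Serpinb6e was at 1.2 against 0 to 0.133 and Tchh was at 92.2 against 3.95 to 9.58. In the same library Trdv4 was at 0.215 against 0. In allogeneic replicate 2 Cd55 was at 27.9 against 23 to 23.1, Pdcd1 was at 18.3 against 5.04 to 6.15 and Xcl1 was at 2.54 against 0.887 to 1.16. In allogeneic replicate 3 Cd274 was at 383 against 78.6 to 87.3, Ly75 was at 6.32 against 8.9 to 9.22, Mrgprb2 was at 0.973 against 2.1 to 2.15 and Tnnt1 was at 392 against 1.22 to 10.3. In allogeneic replicate 4 Cxcl13 was at 53.4 against 17.7 to 21.4, Ereg was at 166 against 48.7 to 61, Krt8 was at 0 against 0.221 to 0.258 and Lgals7 was at 5142 against 3248 to 3457. In the same library Mlkl was at 16.6 against 25 to 25.7, Rxfp1 was at 0.0591 against 0 and Skint1 was at 29.1 against 25.6 to 25.8. The hair keratin share of counts in allogeneic replicate 1 was 0.0558%, against 0.000916 to 0.0025% in the other 3.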

How the results depend on the processing

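The number of genes called was 4752, with 2674 higher and 2078 lower. It stayed within 1.5 times of this under RLE size factors (4802), library totals alone (4253), upper-quartile factors (4753), TMM factors without muscle and mitochondrial genes (4754), no filter (4310), a minimum count of 30 (4520), DESeq2 (6287), limma voom (5023), all 21 libraries (4621) and the 12 libraries of the first counting run (6538). With the muscle share as a covariate it was 3056, 1519 of them higher. No gene called among the 8 libraries changed sign in any of these fits. Over the fits that leave out 1 library the number was 3351 (without syngeneic replicate 4) to 6138 (without allogeneic replicate 3), with 1945 to 3161 higher and 1385 to 2977 lower. A fit without allogeneic replicates 1 and 3, chosen after seeing the data, called 4966 genes, 2599 higher and 2367 lower.

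The replicate numbers of both groups were compared because the labels number them alike. The correlation of same-numbered libraries' deviations was -0.041, 0.07, -0.264 and 0.229, so the numbers were not taken to pair the samples. With the replicate number as a block 3455 genes were called, 2044 higher and 1411 lower. Of 275 genes named in the text and called, 17 lost their call with the block. By the same count 2 lost it under library totals alone, 9 under limma voom and 9 with all 21 libraries.

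Among genes that were not called, the sign turned for Acta1 (0.74) and Il1b (-0.26) with the muscle covariate and for Acta2 without allogeneic replicates 1 and 3 (0.29). Leaving out 1 library, Acta2 ranged from -0.4 to 0.17, Fn1 from -0.4 to 0.03 and Tnnt1 from 0 to 5.63. The difference in share of counts, allogeneic minus syngeneic in percentage points, ranged over the same fits from -2.31 to -1.59 for mitochondrial transcripts, from -5.07 to -2.84 for muscle, from 2.51 to 3.09 for epidermal keratins, from 0.0495 to 0.124 for immunoglobulin, from -0.00101 to 0.0173 for hair keratin and from -0.00338 to 0.0064 for haemoglobin. Why these values moved was not tested.

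The precision is limited by 4 libraries in each group and by the spread of the allogeneic ones, which differ in muscle, hair and antibody RNA. In simulated data most 2-fold changes were missed. Far fewer genes were changed there than were called here, so the share missed in the real data is not known. Donor strain, disease and the Y-linked difference part the same libraries and cannot be told apart.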
